A study of Mus musculus with 18 samples.

Results

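The effect of losing Sema3b was described in forepaws of mice without arthritis, as 4 Sema3b-/- control libraries against 4 WT control libraries, 8 of the 18 libraries of the series. The members were taken from the genotype and treatment given for each library. All mice were C57BL/6, each library was total RNA from a forepaw, and gene expression was read by CEL-seq, which reads a tag near the 3' end of each RNA. The other 10 libraries, 5 Sema3b-/- arthritis and 5 WT arthritis, served to estimate the spread between libraries and to ask whether the genotype difference was the same in arthritis. The age and sex of the animals, the part of the gene that the Sema3b-/- allele removes, and whether Sema3b-/- and WT mice were littermates are unstated in the labels, and no label limits the loss to a cell type.

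Sema3b is a secreted class 3 semaphorin. Class 3 semaphorins bind neuropilins, which pair with class A plexins, and the plexins pass the signal to small GTPases and to the cytoskeleton inside the cell. These ligands were first known for turning growing axons away, and they also act on the migration of endothelial, immune and mesenchymal cells. In a joint, they meet the fibroblasts of the synovial lining, which make lubricin and hyaluronan for the joint fluid and the proteases that turn over matrix.

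A whole forepaw holds skin, muscle, bone, marrow, cartilage, tendon, fat, nerve and synovium, and 30 of 31 markers of these tissues were at 10 normalized counts or more in all 8 libraries. The exception was the globin gene Hba-a1, at 2.40 to 9.50 normalized counts in Sema3b-/- control and 1.11 to 2.56 in WT control. A normalized count is a read count divided by the size factor of its library. Total reads were 1732783, 12816207, 6260535 and 7161087 in Sema3b-/- control replicates 1 to 4, and 6086700 to 8179726 in WT control. The Sema3b-/- libraries differed more among themselves: their pairwise Spearman correlations ran from 0.834 to 0.936, against 0.951 to 0.965 between WT pairs. The SD of the log2 level was larger in Sema3b-/- for 81.7% of 7109 genes with a mean of at least 100, and for 66.5% when Sema3b-/- replicates 2 and 3 were left out. By Xist, which silences an X chromosome in females, and 4 Y-linked genes, Sema3b-/- replicates 2 and 3 read as male and the other 6 libraries as female. No WT control library read as male, so sex and genotype cannot be fully told apart in the control comparison. Xist was at 271, 5.03, 14.2 and 194 normalized counts in Sema3b-/- and at 278 to 423 in WT, and the Y-linked genes summed to 8.09, 896, 781 and 20.4 in Sema3b-/- and to 2.71 to 4.26 in WT. Both replicates that read as male were also rich in bone, and Sema3b-/- replicate 4 in skin and muscle, so values are given per library and with these libraries left out where that matters.

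Sema3b (mm10 chromosome 9, 107597674 to 107609229, minus strand) was at 0, 2.23, 2.37 and 7.20 normalized counts in Sema3b-/- control, against 49.7, 44.2, 67.5 and 62.2 in WT control. The groups were far apart, and the values follow the genotype in all 8 libraries. These values rest on 0, 4, 2 and 6 reads in Sema3b-/- and on 45, 49, 72 and 73 in WT. In Sema3b-/- replicate 1, the shallowest library, the limit set by a count of 0 is 3 reads or 12.1 normalized counts, so a residue of that size was not detectable. Sema3b fell by 4.19 on the scale of log2 of the value plus 1 (SE 0.60, limma adjusted p = 0.0234). Its log2 fold change was -4.09 with DESeq2 and -4.04 with edgeR on recovered reads, and -2.99 with 5 added to the value in place of 1. The call ended, at an adjusted p of 0.0588 to 0.187, without any 1 of the 8 libraries other than Sema3b-/- replicate 4, and was at 0.00682 without that one. It also ended in the 8 control libraries alone (0.212), with the 2 libraries that read as male left out (0.072), with sex as a term (0.121) and with a higher filter on low values (0.463), while DESeq2 on recovered reads gave 4.23e-09.

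Beside Sema3b itself, the class 3 semaphorins did not pass the test. Of 6 class 3 semaphorins tested, Sema3b was called, and it was also the only member with an unadjusted p under 0.05. Sema3e, the ligand of plexin D1, was at 60.7, 51.4, 58.2 and 57.6 normalized counts in Sema3b-/- control and 70.7, 79.4, 88.2 and 85.3 in WT control. All 4 Sema3b-/- values lay below the WT values, yet the log2 fold change of -0.50 (SE 0.45) was close to its error in the fit of all 18 libraries. Sema3f, which lies near Sema3b and signals mainly through neuropilin 2, averaged 53.9 ± 22.3 in Sema3b-/- and 73.1 ± 9.95 in WT (SD, n = 4 each), with overlap. Sema3a, the best known repellent of sensory axons, ranged from 61.2 to 259 normalized counts in Sema3b-/- and from 143 to 193 in WT. Sema3c, the most abundant of the family by normalized count, averaged 424 ± 80.9 in Sema3b-/- and 409 ± 71.7 in WT, and Sema3d averaged 176 ± 42.5 in Sema3b-/- and 201 ± 28.1 in WT. Sema3g did not reach the level needed for testing. The SE of their log2 fold changes, from 0.26 for Sema3c to 0.45 for Sema3e, limits how small a difference could be seen.

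The receptors and the genes that act below them were also not called, and none of these lists had a member with an unadjusted p under 0.05. Over all 13809 genes tested, 5.87% had one. Nrp1, the neuropilin that most class 3 semaphorins bind, was at 736, 713, 939 and 835 normalized counts in Sema3b-/- control and 755, 1022, 1028 and 989.9 in WT control, at -0.23 (SE 0.14) on the log2 scale. Nrp2 was at 344, 665, 723 and 259 in Sema3b-/- and 437 to 565 in WT, and the high values were again those of Sema3b-/- replicates 2 and 3. The plexins Plxna1, Plxna2, Plxna3, Plxna4 and Plxnd1 had log2 fold changes from -0.12 to 0.02, with SE of 0.20 to 0.42. Of 16 genes of semaphorin signalling inside the cell, 9 had a log2 fold change above 0 and the median was 0.02. Among them were Rac1, a small GTPase that plexins control, at 0.19 (SE 0.12), Dpysl2, a mediator of growth cone collapse, at -0.31 (SE 0.18), and the oxidase Mical1 at -0.22 (SE 0.20). The other semaphorins and plexins, 16 genes with a median of -0.04, held Sema7a, Sema4b and Sema6c at 0.45, 0.47 and 0.51, each with overlap between the groups.

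**Figure D1:**
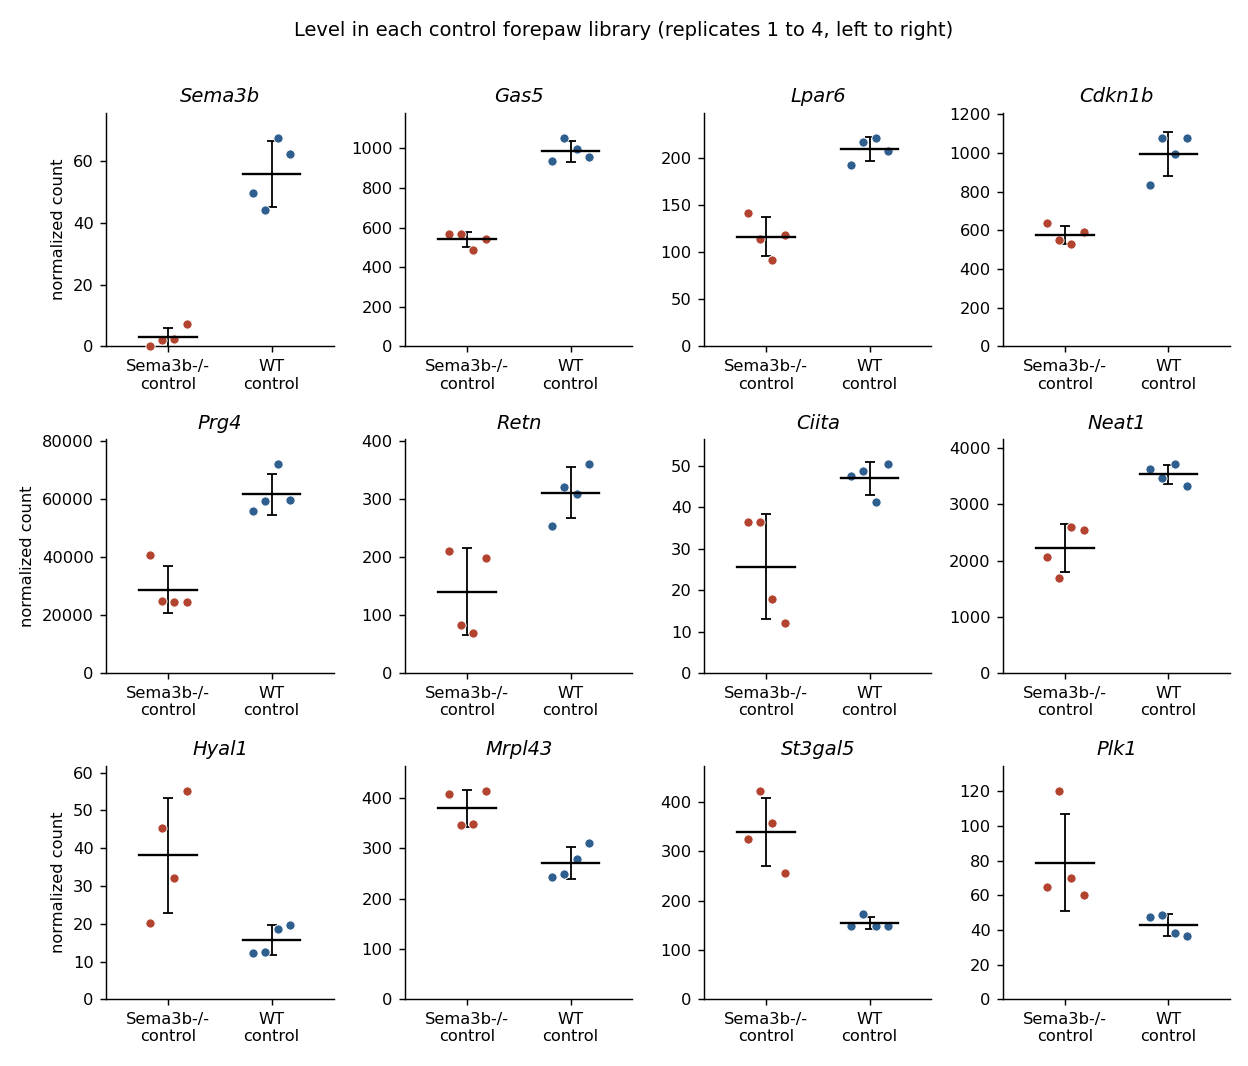
Normalized counts of 12 genes in the 4 Sema3b-/- control (left, red) and 4 WT control (right, blue) libraries; lines are means and bars SD, and each vertical axis starts at 0. Sema3b lies at 0 to 7.20 in Sema3b-/- and 44.2 to 67.5 in WT, Gas5 at 488 to 569 in Sema3b-/- and 934 to 1051 in WT, and in Prg4 Sema3b-/- replicate 1 stands above the other 3.

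Gas5 was the only other gene that passed the test. Gas5 is a long noncoding RNA that rises in growth-arrested cells, hosts small nucleolar RNAs in its introns and can bind the glucocorticoid receptor. It was at 566, 569, 488 and 542 normalized counts in Sema3b-/- control, against 934, 1051, 995 and 953 in WT control. The values within each group were close together and the groups did not overlap. Its level averaged 541 ± 37.6 in Sema3b-/- and 983 ± 52.0 in WT (SD, n = 4 each), and the log2 fold change was -0.86 (SE 0.14, limma adjusted p = 0.0385). Its log2 fold change lay between -0.89 and -0.79 in all 20 alternatives, while the call ended without any 1 of the 8 libraries (adjusted p 0.0588 to 0.26), with the 2 libraries that read as male left out (0.102), with sex as a term (0.219), in the 8 control libraries alone (0.169), with reads thinned to 1 depth (0.293) and with a higher filter or none on low values (0.058 and 0.0519). Gas5 (mm10 chromosome 1, 161034422 to 161038539, plus strand) overlaps Zbtb37, on the other strand, at its 5' side, and the small nucleolar RNAs it hosts. The labels do not say whether counting used strand, so any reads within such an overlap cannot be told apart. The overlap with Zbtb37 holds the start of both genes, whereas CEL-seq reads a tag near the 3' end. The part that overlap plays in the Gas5 values was not tested. Other hosts of small nucleolar RNAs did not share its call: of 8 tested, 2 had an unadjusted p under 0.05, Gas5 and Snhg12, against 5.87% of all genes. The median of the 8 was -0.13. Snhg12 was at 32.4, 54.2, 68.9 and 63.6 in Sema3b-/- and 87.3, 90.2, 90.1 and 65.7 in WT, a log2 fold change of -0.64 (SE 0.21). Snhg1 and Snhg8 were at -0.15 (SE 0.13) and -0.24 (SE 0.16).

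Across the whole transcriptome the 2 calls, Sema3b and Gas5, were 0.0145% of 13809 genes, and both were lower in Sema3b-/-. At an unadjusted p under 0.05 there were 811 genes, 5.87%, of which 368 (2.66%) were higher and 443 (3.21%) lower. The groups did not overlap for 580 genes (4.2%), with all 4 Sema3b-/- values above WT for 286 (2.07%) and below for 294 (2.13%). The median log2 fold change was -0.00691, and 49.1% of genes had a value above 0. Count models on recovered reads called 2 genes with edgeR, and 5 with DESeq2, where Lpar6, Usp40 (-1.21, adjusted p = 0.0176) and Klri2 (-3.06, adjusted p = 0.0489) joined Sema3b and Gas5. Usp40 and Klri2 are named after their values were seen, and with edgeR their adjusted p was 0.138 and 0.655. Klri2 rests on 0, 5, 0 and 3 reads in Sema3b-/- control and on 7, 17, 30 and 20 in WT control. The authors' deposited table of the same comparison called 0 of 18571 genes, with 628 at an unadjusted p under 0.05. In the authors' deposited table Sema3b was at -4.08 (adjusted p = 0.0783) and Gas5 at -0.86 (adjusted p = 0.411). The genes below other than these calls are therefore given as values and not as changes.

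**Figure D2:**
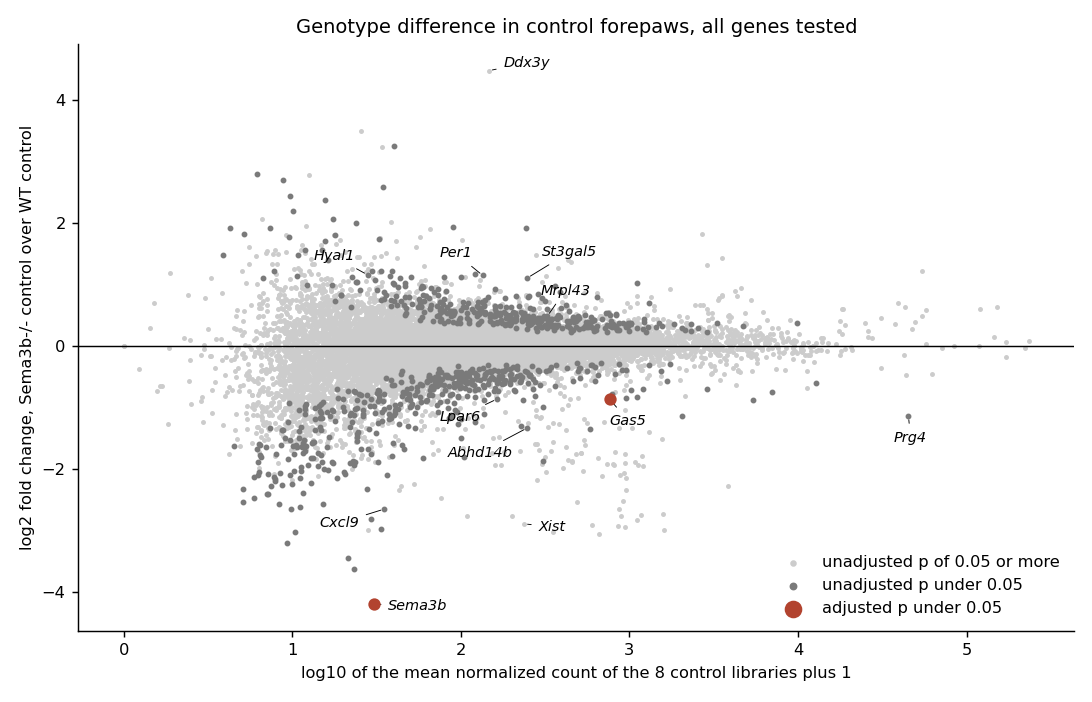
Log2 fold change of Sema3b-/- control over WT control (vertical) against the log10 mean normalized count of the 8 control libraries plus 1 (horizontal) for 13809 genes. The 811 genes with an unadjusted p under 0.05 are dark grey and the 2 called genes red; Sema3b lies at -4.19 and Gas5 at -0.86, and the Y-linked Ddx3y and Xist, which follow sex, lie far from 0 without a low p.

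The genes next to Sema3b were examined because the knockout allele lies among them. Of 15 flanking genes tested, Hyal1 and Tusc2 were higher and Rbm6 lower at an unadjusted p under 0.05. These were 3 in all, against 5.87% of all genes, and none was called. Hyal1, a lysosomal enzyme that breaks down hyaluronan, was at 20.2, 45.3, 32.1 and 55.2 normalized counts in Sema3b-/- control and 12.2, 12.6, 18.8 and 19.6 in WT control. All 4 Sema3b-/- values lay above WT, and the log2 difference was 1.16 (SE 0.31, limma adjusted p = 0.793), and between 0.96 and 1.98 in the 19 alternatives that tested it, the filter at 50 leaving it out. Hyal1 (mm10 chromosome 9, 107576927 to 107581710, plus strand) overlaps Hyal3 and Nat6 (Naa80) on its own strand, so reads could be split among the 3, and Hyal3 and Nat6 were at -0.49 (SE 0.82) and 0.03 (SE 0.21). Tusc2, a tumour suppressor candidate of mitochondria, was at 97.1, 94.4, 92.6 and 119 in Sema3b-/- and 78.5, 66.8, 70.4 and 69.1 in WT, again without overlap, at 0.49 (SE 0.20). The RNA-binding protein genes Rbm6 and Rbm5 were at -0.37 (SE 0.18) and -0.26 (SE 0.15). Gnai2, Slc38a3, Ifrd2, Cyb561d2, Tmem115, Hyal2, Nprl2, Rassf1 and Sema3f ran from -0.52 to 0.28, with overlapping groups.

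Farther out on the chromosome, Abhd14a and Abhd14b, a pair of hydrolase genes about 1.16 Mb from Sema3b, lay below WT in all 4 Sema3b-/- libraries. Both are among the genes named below by their low p. Abhd14b was at 239, 92.7, 115 and 138 normalized counts in Sema3b-/- control and 322, 353, 309.6 and 405 in WT control, a log2 fold change of -1.33 (SE 0.37). Abhd14a was at 178, 130.2, 141 and 122 in Sema3b-/- and 195 to 229 in WT, at -0.60 (SE 0.14). The start regions of this pair overlap on opposite strands. Leaving out Sema3b, 7 of 51 genes tested within 1 Mb had an unadjusted p under 0.05 (13.7%) and 15 of 136 within 5 Mb (11.03%), against 38 of 636 on the rest of chromosome 9 (5.97%) and 810 of 13808 in all (5.87%). The 15 genes within 5 Mb were 9 higher and 6 lower, and the median over all 136 was 0.01. Neighbouring genes can share reads and regulation, so these shares are a description.

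**Figure D3:**
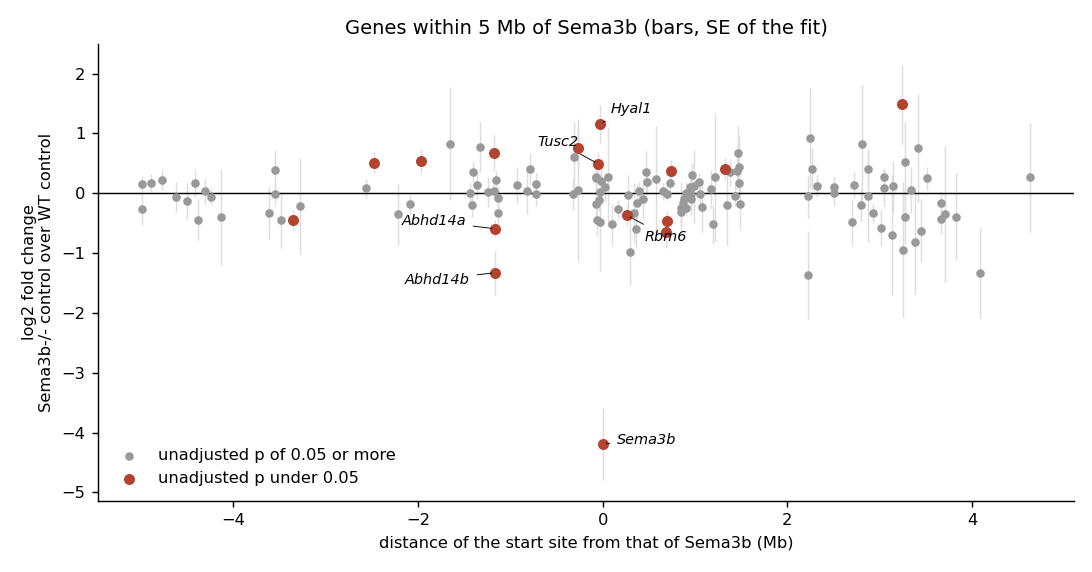
Log2 fold change of Sema3b-/- control over WT control (vertical, bars SE) against the distance in Mb of each gene's start site from that of Sema3b (horizontal), for genes tested within 5 Mb. Hyal1 and Tusc2 lie above 0 beside Sema3b, and Abhd14a and Abhd14b lie below 0 about 1.16 Mb away.

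Among genes at or above the median level of 106 normalized counts whose groups do not overlap, the 15 with the lowest p in each direction are named here. Below WT, Lpar6 came nearest to the threshold. Lpar6, a receptor for lysophosphatidic acid, was at 142, 114, 91.4 and 119 normalized counts in Sema3b-/- control and 192, 217, 221 and 207 in WT control, without overlap, at -0.86 on the log2 scale (SE 0.16, limma adjusted p = 0.121). It passed with DESeq2 (adjusted p = 0.000893) and with limma array weights (0.0289), and its adjusted p ran from 0.000893 to 0.519 over the 20 alternatives. Lpar6 (mm10 chromosome 14, 73237895 to 73243294, plus strand) lies within Rb1, which runs on the other strand. Cdkn1b, the p27 inhibitor of cyclin-dependent kinases, was at 635, 552, 527 and 592 in Sema3b-/- and 834, 1076, 993 and 1077 in WT (log2 fold change -0.78, SE 0.19, limma adjusted p = 0.491). Snapc3, a subunit of the complex that starts transcription of small nuclear RNAs, averaged 87.4 ± 27.5 in Sema3b-/- and 183 ± 26.3 in WT, at -1.11 (SE 0.26), and overlaps Psip1. Fgf7, the keratinocyte growth factor that mesenchymal cells secrete, averaged 87.2 ± 24.2 in Sema3b-/- and 152 ± 24.8 in WT, at -0.82 (SE 0.25). Gbp2, an interferon-induced GTPase, was at 235, 204, 122 and 259 in Sema3b-/- and 262, 549, 489 and 339 in WT, at -0.99 (SE 0.27). The zinc finger gene Zscan26 was at -0.66 (SE 0.15) and Cmah, which makes the sialic acid Neu5Gc, at -0.72 (SE 0.20). Tulp4, Ppil4, Ankrd12, Eif4e3 and Pacsin2 ran from -0.63 to -0.49.

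The genes above WT were each further from the threshold, the lowest adjusted p being 0.517. Mrpl43, a protein of the large mitochondrial ribosomal subunit, was at 409, 347, 348 and 414 normalized counts in Sema3b-/- control and 243, 249, 279 and 311 in WT control, at 0.49 (SE 0.12), and overlaps Twnk. Mrps34, of the small subunit, was at 0.55 (SE 0.16). St3gal5, which makes the ganglioside GM3, was at 324, 422, 356 and 255 in Sema3b-/- and 148, 172, 149 and 148 in WT, the widest of these differences at 1.11 (SE 0.31). The condensin subunits Ncapd2 and Ncaph2, which compact chromosomes for division, were at 0.81 (SE 0.21) and 0.41 (SE 0.13). Fech, which inserts iron to make haem, averaged 1626 ± 429 in Sema3b-/- and 980.1 ± 118 in WT, at 0.70 (SE 0.19). Heyl, a target of Notch signalling in vessel walls, was at 166, 154, 192 and 116 in Sema3b-/- and 116, 86.6, 78.8 and 95.5 in WT, at 0.72 (SE 0.22), with the lowest Sema3b-/- value just above the highest WT value. Gipc1, an adaptor that binds the tail of neuropilin 1, was at 1028, 743, 697 and 1097 in Sema3b-/- and 523 to 687 in WT, at 0.54 (SE 0.17). Cdca4, Tfg, Rangap1, Swi5, Rnps1, Narf and Vopp1 ran from 0.36 to 0.65. That the groups of these genes do not overlap is part of the rule that named them.

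The tissues that make up a paw were unequal among the 4 Sema3b-/- libraries, and far more alike in WT. The 15 osteoblast and osteocyte genes summed to 67762, 298244, 342229 and 29666 normalized counts in Sema3b-/- control and to 76999 to 84676 in WT control. Sema3b-/- replicates 2 and 3 were thus well above WT and replicate 4 well below. Bglap, which encodes osteocalcin, was at 142, 472, 317 and 40.8 in Sema3b-/- and 86.6 to 131 in WT, and Spp1, Phex and Col11a1 had the same order of libraries. The median of the 14 bone genes tested was a log2 fold change of 0.43, -0.75 with replicates 2 and 3 left out and 1.05 with replicate 4 left out. Osteoclast genes summed to 9456, 24986, 22592 and 3562 in Sema3b-/- and 8667 to 9426 in WT, and collagens outside cartilage to 219330, 744605, 817045 and 120520 in Sema3b-/- and 225883 to 263364 in WT.

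Skin and muscle stood highest in Sema3b-/- replicate 4. Epidermal genes summed to 208822, 102358, 167945 and 481300 normalized counts in Sema3b-/- control and 112191 to 180090 in WT control, with Krt10, a keratin of the outer layers, at 112036 in replicate 4 and at most 44177 in the other 7 libraries. Muscle genes summed to 187701, 204615, 349548 and 463124 in Sema3b-/- and 187653 to 242307 in WT. Within muscle, 10 of 10 genes of fast fibres had a log2 fold change above 0 and 2 of 9 genes of slow fibres did, with medians of 0.38 and -0.49, and 0.44 and -0.52 without replicates 2 and 3. Without replicate 4, 7 of 10 fast and 1 of 9 slow fibre genes were above 0, with medians of 0.14 and -0.35. Myh4, the myosin of the fastest fibres, was at 2966, 4829, 5752 and 13949.5 in Sema3b-/- and 2478 to 5018 in WT, while Tnni1, the slow troponin I, was at 247, 241, 463 and 254 in Sema3b-/- and 457 to 641 in WT. No gene of these lists had an unadjusted p under 0.05.

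Hair follicle genes read low in 3 of the 4 Sema3b-/- libraries. They summed to 4487, 1380, 1135 and 18276 normalized counts in Sema3b-/- control and 7638 to 23372 in WT control, and 0 of 17 had a log2 fold change above 0, with a median of -1.39. The hair keratin Krt33b was at 801, 124, 45.1 and 1058 in Sema3b-/- and 848 to 1767 in WT. The libraries lowest in hair, replicates 2 and 3, are those that read as male and rich in bone, and without them the median was -0.20 with 4 of 17 above 0, while without replicate 4 it was -2.40. Marrow stood out in Sema3b-/- replicate 2: neutrophil granule genes summed to 10298, 21957, 7822 and 4961 in Sema3b-/- and 4181 to 6869 in WT, and erythroid genes to 2169, 4763, 2169 and 1102 in Sema3b-/- and 810 to 1523 in WT. All 10 granule genes and all 7 erythroid genes tested had a log2 fold change above 0, with medians of 0.69 and 1.36, and none had an unadjusted p under 0.05. Without replicates 2 and 3, 9 of 10 granule genes and 6 of 7 erythroid genes were above 0, with medians of 0.26 and 0.83. In whole-paw RNA, fewer cells of a type and less RNA per cell cannot be told apart. The part that these tissue sums play in the values below was not tested.

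**Figure D4:**
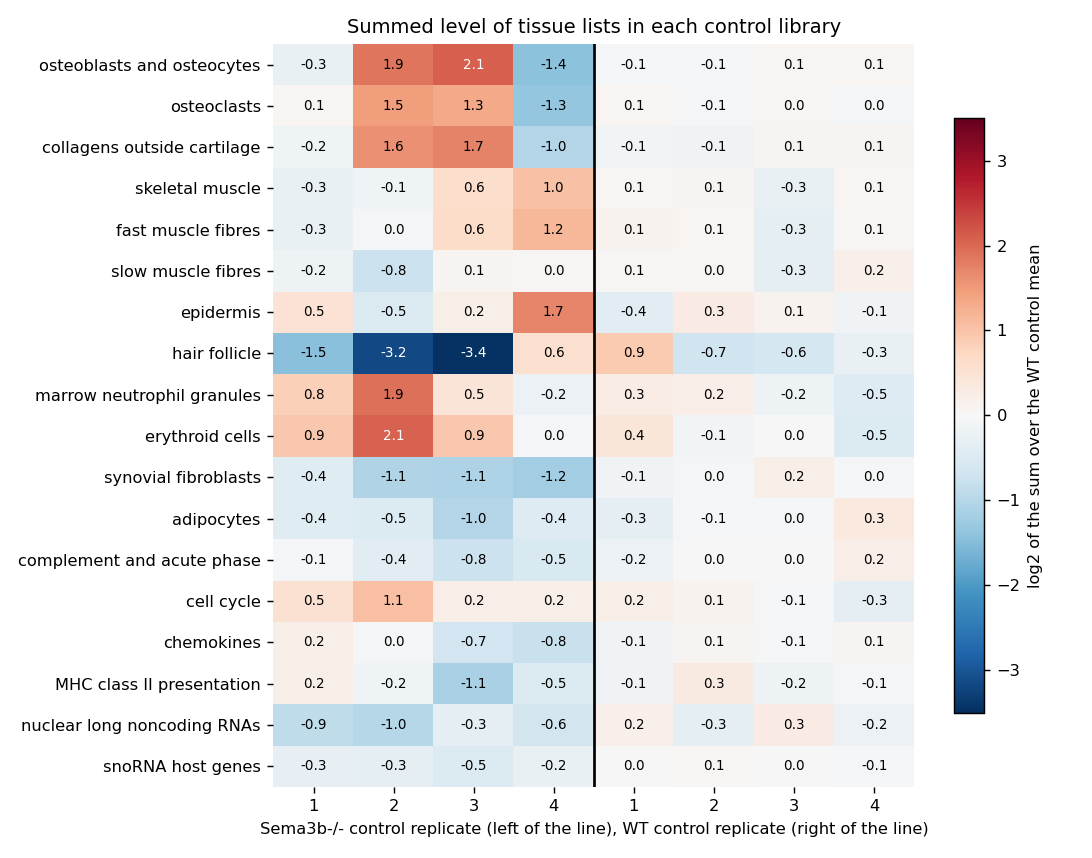
Log2 of the summed normalized counts of 18 gene lists in each library over the mean of the 4 WT control libraries; the 4 Sema3b-/- control libraries are left of the line. Bone and collagen lists are 1.3 to 2.1 above WT in Sema3b-/- replicates 2 and 3, the epidermis is 1.7 above in replicate 4, and the synovial list is below 0 in all 4 Sema3b-/- libraries.

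In the synovial lining, Prg4 was at lower values in Sema3b-/- control. It encodes lubricin, which coats cartilage and synovium, and was at 40839, 24903, 24368 and 24538 normalized counts in Sema3b-/- and 55793, 59272, 71963 and 59837 in WT control. All 4 Sema3b-/- values lay below WT, and those of replicates 2, 3 and 4 were close together. Prg4 (mm10 chromosome 1, 150449412 to 150466165, minus strand), whose 3' end overlaps Tpr, was at -1.14 on the log2 scale (SE 0.46, limma adjusted p = 0.805), and between -1.32 and -0.75 in all alternatives. Fn1, fibronectin, was at 12948, 7734, 8312 and 6554 in Sema3b-/- and 12749.9 to 15783 in WT, at -0.68 (SE 0.38), and Has1, a hyaluronan synthase, averaged 36.6 ± 9.01 in Sema3b-/- and 57.1 ± 12.8 in WT, at -0.64 (SE 0.42). The matrix protease Mmp3 was at 40.5, 64.8, 66.5 and 46.8 in Sema3b-/- and 132, 100.2, 98.5 and 157 in WT, without overlap, at -1.15 (SE 0.76). Timp3, an inhibitor of such proteases, was also below WT in all 4, at -0.35 (SE 0.27). Adamts5, an aggrecanase, was at -0.43 (SE 0.24), and Comp, a matrix protein of cartilage and tendon, at -0.31 (SE 0.22). Of 16 synovial fibroblast genes, 5 had a log2 fold change above 0, only Prg4 was lower at an unadjusted p under 0.05, a share near the 5.87% of all genes, and none was called. Their median was -0.31, and -0.47 without replicates 2 and 3. Without replicate 4 it was -0.16, with 7 of 16 above 0. Their sum was 61179, 39560, 38817 and 35458 in Sema3b-/- and 74945 to 94800 in WT, and Prg4 gives most of it. Cartilage genes, Prg4 again among them, had a median of 0.56, -0.66 without replicates 2 and 3 and 1.38 without replicate 4. Of 15 matrix proteases and inhibitors none had an unadjusted p under 0.05, and the median was 0.26, -0.32 without replicates 2 and 3 and 0.59 without replicate 4. In tendon, Scx, the transcription factor of tendon cells, was at 182, 172, 226 and 149.9 in Sema3b-/- and 102, 103, 76.9 and 142 in WT (0.80, SE 0.37), while Tnmd followed the bone-rich libraries, at 279, 779, 652 and 213 in Sema3b-/- and 238 to 334 in WT. Scx does not stand for its list: 4 of 9 tendon genes had a log2 fold change above 0, with a median of -0.08. Of the 9, 1 was higher at an unadjusted p under 0.05 (2.66% of all genes), and Scx alone lay above WT in all 4 (2.07%). The median was -0.29 with 2 of 9 above 0 without replicates 2 and 3, and 0.21 with 5 of 9 without replicate 4.

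Fat cell genes were all on the lower side. Of 11 adipocyte genes tested, 0 had a log2 fold change above 0, 3 were lower at an unadjusted p under 0.05 (3.21% of all genes) and 4 had all Sema3b-/- values below WT (2.13% of all genes), with a median of -0.63. Adipoq, the hormone adiponectin, was at 1117, 861, 556 and 734 normalized counts in Sema3b-/- control and 1292, 1331, 1534 and 1446 in WT control (-0.82, SE 0.38). Retn, resistin, was at 210.4, 83.2, 68.9 and 198 in Sema3b-/- and 253, 320.3, 309 and 359 in WT (-1.30, SE 0.51), and Pparg, the master regulator of fat cells, averaged 97.7 ± 37.0 in Sema3b-/- and 173 ± 35.1 in WT (-0.87, SE 0.34). None was called, and the lowest value of all 3 genes was in Sema3b-/- replicate 3. Without replicates 2 and 3 the median was -0.35, 2 of 11 were above 0 and none had an unadjusted p under 0.05, and without replicate 4 it was -0.71 with 1 such gene. Scd1, a desaturase of fatty acids, was at 6207, 2745, 2626 and 4081 in Sema3b-/- and 4759 to 8301 in WT.

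Complement genes and chemokines were mostly at lower values, without calls. Of 18 complement and acute phase genes, 4 were lower at an unadjusted p under 0.05, against 3.21% of all genes, and none higher, with a median of -0.29. The median was -0.48 without replicate 1, -0.21 without replicates 2 and 3 and -0.28 without replicate 4. C1ra, a protease that starts the classical pathway, was at 113, 96.7, 85.5 and 83.9 normalized counts in Sema3b-/- control and 132, 129.9, 167 and 191 in WT control (-0.69, SE 0.24), and C4b was at 14.2 to 20.2 in Sema3b-/- and 27.3 to 28.7 in WT. Serping1, the C1 inhibitor, and the central component C3 were below WT in 3 libraries, while Sema3b-/- replicate 1 was within the WT range, with Serping1 at 14182 and C3 at 1347. Without replicates 2 and 3, none of the 18 had an unadjusted p under 0.05. Of 19 chemokines, 2 had a log2 fold change above 0 and 3 were lower at an unadjusted p under 0.05 (3.21% of all genes), with a median of -0.50. The median was -0.77 without replicate 1, -0.47 with 5 of 19 above 0 without replicates 2 and 3, and -0.48 without replicate 4. Ccl19, which draws dendritic cells and T cells, was at 24.3, 40.8, 39.2 and 28.8 in Sema3b-/- and 53.1, 68.6, 57.2 and 86.1 in WT (-0.98, SE 0.33). The interferon-gamma target Cxcl9 was at 20.2, 23.5, 0 and 7.20 in Sema3b-/- and 24.3, 97.5, 46.9 and 53.7 in WT (-2.65, SE 0.90), and Cxcl13, a B cell attractant, was at 0 in Sema3b-/- replicates 1 and 3, at 10.1 and 15.6 in the other two, and at 5.53 to 15.3 in WT (-1.75, SE 0.80). Cxcl12, made by stroma and marrow, was at 4645, 4116, 2284 and 1853 in Sema3b-/- and 3816 to 4370.3 in WT, with overlap.

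Ciita, the switch for MHC class II genes, was at 36.4, 36.3, 17.8 and 12 normalized counts in Sema3b-/- control and 47.5, 48.7, 41.3 and 50.3 in WT control (-0.98, SE 0.30, limma adjusted p = 0.793). Its targets, with H2-Aa at 5665, 4537, 2316 and 3417 in Sema3b-/- and 4559 to 6538 in WT, overlapped between the groups, and 0 of 7 class II genes had a log2 fold change above 0, with a median of -0.32, -0.09 without replicates 2 and 3 and -0.51 without replicate 1. Of 16 interferon-stimulated genes, Gbp2, given above, and Irf1, a transcription factor at -0.47 (SE 0.20), were the 2 lower at an unadjusted p under 0.05 (3.21% of all genes). The median of the 16 was -0.19, -0.39 without replicates 2 and 3, -0.36 without replicate 1 and -0.18 without replicate 4. The mast cell tryptase Tpsb2 was at 113, 108, 112 and 146 in Sema3b-/- and 168, 153, 213 and 247 in WT (-0.69, SE 0.24). Among 8 mast cell genes, 2 had a log2 fold change above 0 and 1 was lower at an unadjusted p under 0.05 (3.21% of all genes), with a median of -0.50. Without replicates 2 and 3 the median was 0.00594, 4 of 8 were above 0 and none had an unadjusted p under 0.05. The pericyte gene Rgs5 was at 68.8, 52.0, 79.5 and 49.2 in Sema3b-/- and 132, 113, 84.4 and 147 in WT (-0.92, SE 0.34), and Tagln, of smooth muscle, was at -0.57 (SE 0.22). Ebf1, a transcription factor of B cells that is also made in fat and pericytes, was below WT in all 4 at -0.55 (SE 0.24). The other B cell genes did not share this: 6 of 9 tested had a log2 fold change above 0, with a median of 0.10. Ebf1 alone lay below WT in all 4 (2.13% of all genes), and 1 of the 9 was lower at an unadjusted p under 0.05 (3.21%). Without replicates 2 and 3 the median was -0.49 with 0 of 9 above 0, and without replicate 4 it was 0.40 with 8 of 9. Proinflammatory cytokines and macrophage genes had medians of 0.04 and -0.00236, with no member at an unadjusted p under 0.05.

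Genes of cell division were on the higher side. Of 15 cell cycle genes, 14 had a log2 fold change above 0, 6 were higher at an unadjusted p under 0.05, against 2.66% of all genes, and none was called, with a median of 0.57. Plk1, a mitotic kinase, was at 64.7, 120.1, 70.0 and 60.0 normalized counts in Sema3b-/- control and 47.5, 48.7, 38.5 and 36.7 in WT control, without overlap (0.82, SE 0.26). Mki67, the proliferation marker, was at 295, 551, 395 and 332 in Sema3b-/- and 254, 301, 224 and 160.3 in WT (0.74, SE 0.25). Rrm2, of nucleotide synthesis, was at 878, 1384, 653 and 443 in Sema3b-/- and 340.2 to 563 in WT, and Aurkb was at 0.74 (SE 0.32). The highest sum of the list, 5924, was in Sema3b-/- replicate 2, the library richest in marrow, against 3279 to 4115 in the other 3 and 2246 to 3270 in WT. Without replicates 2 and 3 the median was 0.50 and none of the 15 had an unadjusted p under 0.05. Cdkn1b, which holds cells out of division, lay on the other side of 0, as given above.

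The clock gene Per1 and the glucocorticoid-responsive genes Tsc22d3, Pdk4 and Errfi1 were above WT in most Sema3b-/- libraries, again without calls. Per1, a repressor of the clock that glucocorticoids also induce, was at 101, 188, 245 and 213 normalized counts in Sema3b-/- control and 103, 87.5, 72.2 and 61.4 in WT control (1.15, SE 0.34, limma adjusted p = 0.793). Sema3b-/- replicate 1 was within the WT range. Of 18 clock genes, 1 was higher and 1 lower at an unadjusted p under 0.05 (2.66% and 3.21% of all genes). Per2 and Per3 were at -0.52 (SE 0.33) and -0.45 (SE 0.29). The lower of the 2 clock genes was Npas2, at 3.60 to 9.50 in Sema3b-/- and 6.82 to 16.6 in WT. Tsc22d3, which encodes the glucocorticoid-induced leucine zipper, was at 534, 755, 702 and 566 in Sema3b-/- and 384, 432, 452 and 453 in WT (0.56, SE 0.27). Pdk4, a brake on glucose oxidation, and Errfi1, an inhibitor of EGF receptors, were also above WT in all 4, at 1.05 (SE 0.63) and 0.31 (SE 0.21). Of the 15 glucocorticoid-responsive genes 12 had a log2 fold change above 0. Among them 1, Per1, was higher at an unadjusted p under 0.05 (2.66% of all genes), and 3 lay above WT in all 4 (2.07% of all genes). The median of the 15 was 0.21, 0.36 without replicates 2 and 3 and 0.11 without replicate 4. The labels do not state the hour at which tissue was taken.

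The nuclear long noncoding RNAs Neat1 and Malat1 were lower in value. Neat1, the scaffold of paraspeckles, was at 2064, 1696, 2594 and 2548 normalized counts in Sema3b-/- control and 3637, 3461, 3709 and 3333 in WT control, without overlap (-0.69, SE 0.21, limma adjusted p = 0.793). Malat1 was at 4463, 4244, 6637 and 5379.8 in Sema3b-/- and 10148, 6079, 11343 and 7627 in WT (-0.75, SE 0.29), with overlap. These were the 2 of 7 nuclear long noncoding RNAs with an unadjusted p under 0.05, against 5.87% of all genes. The median of the 7, which include Xist, was -0.38. It was -0.62 without replicates 2 and 3, -0.30 without replicate 1, -0.29 without replicate 4 and -0.27 with sex as a term. Mitochondrially encoded transcripts and cytosolic ribosomal protein genes had medians of 0.00553 and -0.02, with no member at an unadjusted p under 0.05.

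Whether the genotype difference was the same without and with arthritis was tested as an interaction. No gene was called (0%; limma only), and 663 genes, 4.8%, had an unadjusted p under 0.05. Sema3b-/- arthritis against WT arthritis gave 3 calls (0.0217%) and 1239 genes (8.97%) at an unadjusted p under 0.05. The WT arthritis libraries were uneven in Il1b, a proinflammatory cytokine, and in Mmp3. Il1b was at 35.5, 45.8, 801, 937 and 339 normalized counts in WT arthritis replicates 1 to 5, against 281 to 556 in Sema3b-/- arthritis. Mmp3 was at 454, 130, 2637, 2760 and 1690 in WT arthritis, against 1106 to 3795 in Sema3b-/- arthritis. The part this plays in the interaction was not tested. The 8 named genes with the lowest p for the interaction are given. Per1 averaged 187 ± 61.6 in Sema3b-/- control and 81.0 ± 18.1 in WT control (n = 4 each), and 58.8 ± 31.9 in Sema3b-/- arthritis and 120.3 ± 15.3 in WT arthritis (n = 5 each), so the log2 genotype differences were 1.15 (SE 0.34) without and -1.17 (SE 0.30) with arthritis, and the interaction was 2.32 (SE 0.45, limma adjusted p = 0.449, the lowest of the genes named). Errfi1 and Tsc22d3 had the same pair of signs, at 0.31 and -1.02 for Errfi1 and 0.56 and -0.99 for Tsc22d3, as had St3gal5 at 1.11 and -0.50 and the cartilage gene Cilp2 at 0.72 and -1.15. Lpar6 averaged 116 ± 20.6 in Sema3b-/- control, 209.6 ± 12.99 in WT control, 174 ± 13.1 in Sema3b-/- arthritis and 156 ± 29.2 in WT arthritis. Its log2 genotype differences were -0.86 (SE 0.16) without and 0.17 (SE 0.14) with arthritis, and the interaction was -1.03 (SE 0.21). Neat1 and Ciita were at -0.69 and -0.98 without arthritis and at 0.46 and 0.62 with it. The 8 were picked by the interaction itself, from genes mostly named by a low p in control forepaws. Their opposite signs therefore come in part from the choice, and none passed the correction over all genes. Both genes called in control forepaws kept their sign with arthritis, Sema3b at -4.48 (SE 0.54) and Gas5 at -0.58 (SE 0.12). In arthritis, 1 of the 5 Sema3b-/- and 4 of the 5 WT libraries read as male, so sex and genotype cannot be fully told apart in this contrast.

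**Figure D5:**
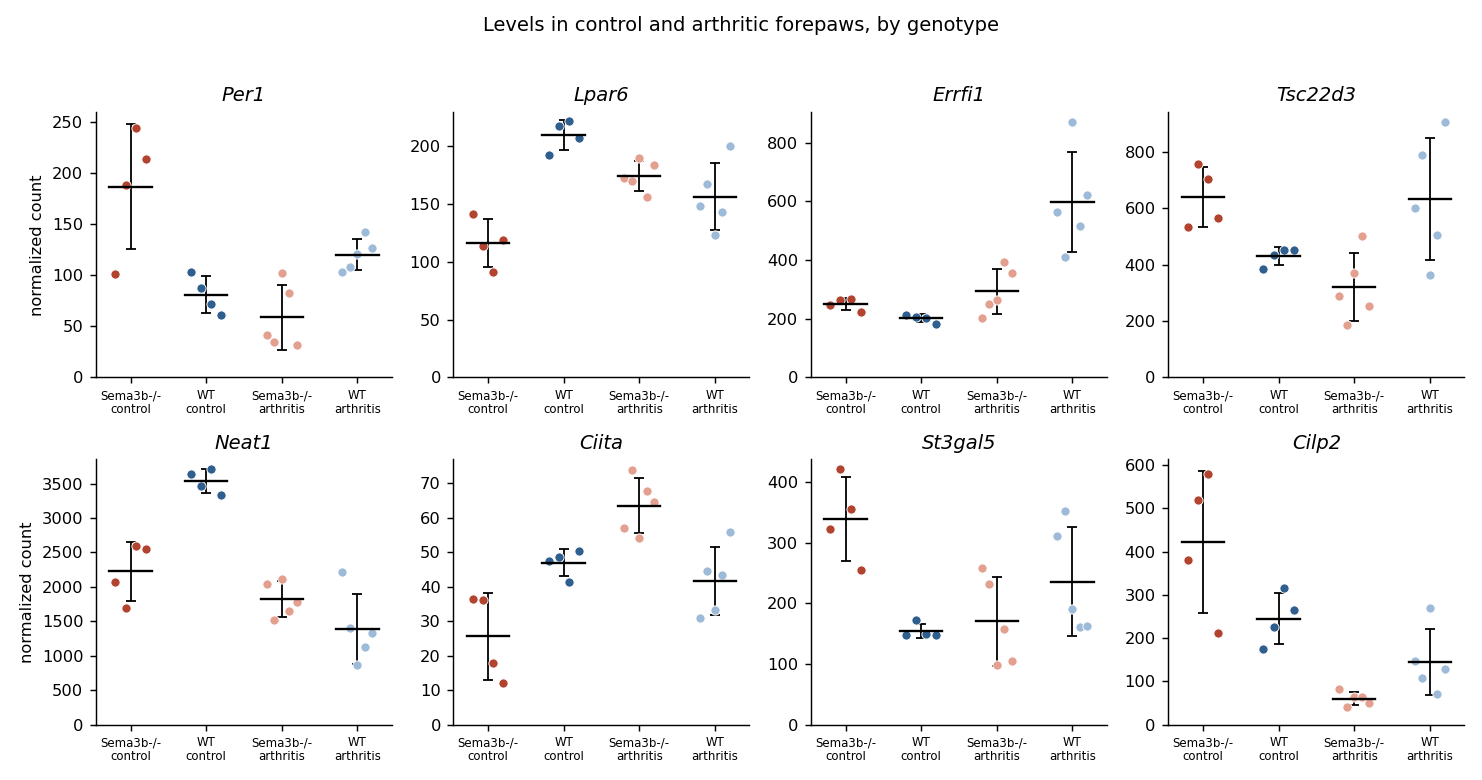
Normalized counts of 8 genes in Sema3b-/- control, WT control, Sema3b-/- arthritis and WT arthritis libraries; lines are means and bars SD, and each vertical axis starts at 0. Per1 averages 187 in Sema3b-/- control and 81.0 in WT control, and 58.8 in Sema3b-/- arthritis and 120.3 in WT arthritis.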

How the data were processed

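Gene expression was measured by CEL-seq in 18 mouse forepaw libraries, of which 4 Sema3b-/- control and 4 WT control are compared. Per the submitters' processing notes, the authors used BWA, the mm10 build and DESeq2 1.32. The counting tool, annotation and use of molecular barcodes are not stated there. The authors deposited a signal table of read counts divided by one size factor per library, with 18578 genes and 7 spike-in entries, which were left out. The authors also deposited a table of this comparison with log2 fold changes, a score (fold change over its error) and p-values. Its sign was found to be Sema3b-/- over WT.

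Whole reads were recovered from the table, with 100% of values within 0.02 of a whole read. The main test was limma 3.58.1 (trend, robust) on log2 of the value plus 1, over all 18 libraries with 4 group means, for 13809 genes at 10 or more in at least 4 libraries. Calls were made at a Benjamini-Hochberg adjusted p under 0.05. Because the table holds normalized counts, edgeR 4.0.16 and DESeq2 1.42.0 on recovered reads were alternatives, as were TMM scaling, other filters and pseudocounts, thinning to 1732783 reads, array weights, sex, subsets of libraries and a replicate block. The limma fit was tested on simulated data. Gene positions came from GENCODE on mm10.

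The labels do not say that libraries came from separate animals, so the p-values reflect only how these libraries vary, which may be technical, and limits at a count of 0 cover counting error only. The title of 1 library among the Sema3b-/- repeats the inner name of another, and it was kept as replicate 4. The column heading of 1 Sema3b-/- arthritis library ends in Ct, much as those of the control libraries end in CT, while its title says arthritis. The title was followed, and that library was kept with arthritis. The members and gene lists were chosen with earlier results of these data known. Genes were named by a rule: the 15 called genes, filled by lowest p, at or above the median level with groups that do not overlap in each direction, up to 4 of each list by lowest p, and the genes flanking Sema3b. For the interaction, the 8 of these genes with the lowest p were named.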

Additional observations from a re-analysis of the deposited data

Results flagged for a closer look

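Of 292 groups of 4 libraries examined, over 128 genes and 18 gene lists, 21 held a library that stood apart from the other 3 of its group. Chance alone gives about 1 in 20 such groups.

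In Sema3b-/- control, replicate 1 stood apart in Prg4 at 40838.7 normalized counts (the other 3 at 24368.5 to 24902.9), in Serping1 at 14182.1 (8593.37 to 9453.58) and in the synovial fibroblast sum at 61179.1 (35457.8 to 39560.4). All 3 values were high, and this is the shallowest library. Replicate 2 stood apart in Plk1 at 120.12 (59.9618 to 70.0482). Replicate 3 stood apart in Cyb561d2 at 21.3706 (44.1372 to 45.571), in the slow troponin Tnni1 at 463.03 (240.799 to 254.238) and in the adipocyte sum at 7713.61 (11329.9 to 11568.2). Replicate 4 stood apart in the mast cell tryptase Tpsb2 at 146.307 (108.388 to 113.295).

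In WT control, replicate 1 stood apart in Nrp1 at 754.868 (989.869 to 1028.22), in Mical1 at 131.522 (167.93 to 171.454), in Alas2 at 438.774 (145.795 to 182.94) and in the Y-linked Eif2s3y at 0 (0.8526 to 0.938155). Replicate 2 stood apart in Ifrd2 at 84.8248 (107.428 to 110.522), in St3gal5 at 172.357 (148.1 to 149.167) and in H2-Aa at 6537.83 (4558.85 to 4775.68). Replicate 3 stood apart in Sema3a at 193.26 (142.574 to 150.058) and in the skeletal muscle sum at 187653 (237082 to 242307). Replicate 4 stood apart in Snhg12 at 65.6502 (87.3127 to 90.2392), in Narf at 113.396 (134.837 to 138.968), in the Y-linked Kdm5d at 1.7052 (0 in the others) and in Npas2 at 6.8208 (15.3407 to 16.5784). In WT control 1 read is worth 0.8526 to 1.11 normalized counts, so the values of Eif2s3y and Kdm5d rest on a few reads or none.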

How the results depend on the processing

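The fit of all 18 libraries called 2 genes. The count was 0 in the 8 control libraries alone, with sex as a term and with a filter at 50; 1 without any filter (Sema3b), with reads thinned (Sema3b) and with the control libraries that read as male left out (Hic2, at -4.19); 2 with edgeR, TMM and a pseudocount of 5; 3 with array weights and 5 with DESeq2. Hic2 was at -1.94 in the main fit (limma adjusted p = 0.835), at -0.54 with DESeq2 and at -0.49 with edgeR. Leaving out 1 library gave 0 to 1 calls. The log2 fold change of Sema3b missed the threshold at -4.19 in the 8 control libraries alone and with a filter at 50, at -4.29 with the libraries that read as male left out and at -4.20 with sex as a term. It ran from -4.66 to -3.65 when 1 library was left out, and from -5.40 (thinned) to -2.99 (pseudocount 5) over the alternatives. The Sema3b level in control forepaws, Sema3b-/- minus WT, was -52.98 normalized counts, -56.1 in CPM on the same scale and -56.9 to -49.1 with 1 library left out. The interaction gave 0 calls in each limma fit in which it was run. Of 128 genes given, each under the alternatives that tested it (20 at most, fewer for 9 genes), no called gene turned its sign, and 105 kept the sign of the fold change throughout, as did 62 of 62 with an unadjusted p under 0.05. The cause of the lost calls was not tested.

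Replicate numbers do not pair the libraries: the correlation of deviations of same-numbered libraries was -0.0317 to 0.0798. With the replicate block, which leaves out Sema3b-/- control replicate 4, 1 gene was called, Sema3b, and 976 had an unadjusted p under 0.05. Depth limits Sema3b, at 0 to 6 reads in Sema3b-/- control.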

Other observations

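Nuclear genes of oxidative phosphorylation were mostly on the higher side in Sema3b-/- control: 16 of 18 had a log2 fold change above 0, with a median of 0.17. Only 1 was higher at an unadjusted p under 0.05 (2.66% of all genes), and none was called. The highest sum, 64665, was in Sema3b-/- replicate 4, the library richest in muscle, against 34768 to 42792 in the other 3 and 34251 to 45105 in WT control, and the median was 0.04 without replicate 4 and 0.30 without replicates 2 and 3. Genes of fatty acid and sterol synthesis were mostly on the lower side, with 3 of 16 above 0 and a median of -0.26. Without Sema3b-/- replicates 2 and 3 the median was 0.04 with 9 of 16 above 0, and without replicate 4 it was -0.42 with 0 of 16.

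Secreted Wnt antagonists had 2 of 12 above 0 and a median of -0.37, -0.39 without replicates 2 and 3 and -0.13 without replicate 4. Mature neutrophil genes had 11 of 12 above 0 and a median of 0.83, and 0.45 without replicates 2 and 3, with the highest sum, 31107, in Sema3b-/- replicate 2, against 7772 to 15525 in the other 3 and 6270 to 9791 in WT control. Endothelium and peripheral nerve had medians of 0.05 and -0.12. None of these 4 lists had a member with an unadjusted p under 0.05, set beside 5.87% of all genes.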
